A study of Mus musculus with 18 samples.

Results

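Tgfbi, Fn1, Col4a1, Col4a2, Col14a1, Col18a1, Vcan, Lamc1, Sparc and Thbs1 encode secreted proteins of the extracellular matrix. These 10 genes were chosen by name from the 54532 genes of the deposited count table, and all 10 were among the 14684 genes that passed a filter on low counts. Polyadenylated RNA was sequenced from macrophages that were grown with CSF-1 out of marrow from the tibiae of mice aged 2 to 3 months. All mice carried loxP-flanked Smad1 alleles (Smad1fl/fl, called floxed-labelled), and the MyS1KO mice (called knockout-labelled) also carried LyzM-Cre, a Cre recombinase driven from the lysozyme M gene Lyz2 of myeloid cells. No group carried the Cre without the floxed alleles. The cells were starved of serum for about 16 h, then kept for 4 h with no ligand, with TGF-β1 (10 ng/ml) or with BMP4 (50 ng/ml). Each of the 6 groups so formed has 3 libraries, numbered 1 to 3. Whether the 3 libraries stem from different animals or cultures is not stated in the labels, so p-values measure the spread among these libraries only, and that spread may be technical.

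The extracellular matrix is a network of collagens, adhesive glycoproteins and proteoglycans that cells secrete and hold through integrins and other receptors. TGF-β ligands are well known inducers of matrix genes in fibroblasts, acting through the transducers Smad2 and Smad3, whereas BMP receptors phosphorylate Smad1, Smad5 and Smad9. Macrophages take up and degrade matrix and also secrete some of its proteins. The comparisons ask which of these genes the ligands changed within 4 h, and how the genotype labels differed.

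The libraries held 15153296 to 24639163 counts. Values are given as CPM, counts scaled to library size, and 3 counts, taken as the floor, came to 0.122 to 0.198 CPM. Macrophage markers were abundant in every library, with the CSF-1 receptor gene Csf1r at 4078 to 4981 CPM. TGF-β1 acted as labelled on Pmepa1, a feedback inhibitor of TGF-β signalling (means of 0.903 CPM untreated and 203 CPM with TGF-β1 in floxed-labelled cells). The deletion of Smad1 could not be checked in the same way, since the labels do not name the deleted exon. Over all treatments Smad1 lay at 19.5 to 26.8 CPM in knockout-labelled and 22.2 to 31.1 CPM in floxed-labelled libraries. Within treatments the knockout-labelled cells differed by log2 −0.22 untreated, −0.20 with TGF-β1 and −0.23 with BMP4 (edgeR adjusted p = 0.13, 0.278 and 0.44). Untreated and BMP4 libraries did not overlap between labels, as in 20.5% and 13.2% of all genes, and TGF-β1 libraries did. Lyz2, which hosts the Cre, went against the labels, with 13449 to 17786 CPM in the 9 knockout-labelled libraries, 8118 to 9872 CPM in floxed-labelled libraries 2 and 3, and 37.6 to 74.3 CPM in the 3 floxed-labelled libraries numbered 1. Differences called between the labels are given with all 18 libraries and with the 15 left without those 3. In these 15 libraries Lyz2 still went against the labels, so the smaller set does not check the labels.

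Per gene length, the 10 genes spanned a wide range of levels. The level per length is given as the authors' FPKM, reads scaled for gene length and for the size of the library, averaged over all 18 libraries. Tgfbi, an adhesive protein that binds collagens and integrins, stood far above the rest at 129 FPKM. Col18a1, the collagen of basement membranes whose end fragment is endostatin, lay at 8.96 FPKM, and Lamc1, the laminin γ1 chain, at 8.14 FPKM. Thbs1, thrombospondin-1, which can activate latent TGF-β, followed at 6.93 FPKM. The other 6 were low: the basement membrane collagens Col4a2 and Col4a1 at 1.69 and 0.899 FPKM, the proteoglycan versican (Vcan) at 0.635 FPKM and fibronectin (Fn1) at 0.362 FPKM. The fibril-associated collagen Col14a1 and the collagen-binding protein Sparc closed the order at 0.342 and 0.144 FPKM. In the plot of level per gene length, Tgfbi stands clear of Col18a1, and Thbs1 of Col4a2. The ranges over libraries of every other pair of neighbours overlap, although Col4a2 exceeded Col4a1 within each of the 18 libraries, and both type IV collagens lay wholly above Sparc.

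**Figure D1:**
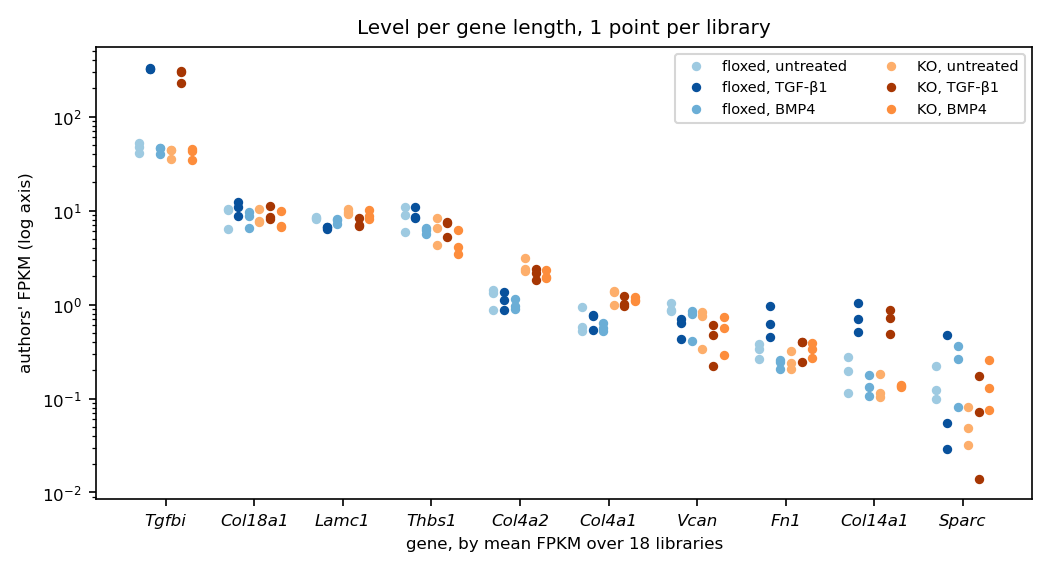
Authors' FPKM (log axis) of the 10 matrix protein genes, ordered by their mean over 18 libraries; each point is 1 library and colours mark the 6 groups. Tgfbi is highest in every library, with its TGF-β1 libraries between 230 and 333 FPKM, and Sparc is the lowest on average at 0.144 FPKM.

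Called differences below had an edgeR adjusted p (quasi-likelihood test, Benjamini-Hochberg over the 14684 genes tested) under 0.05. In floxed-labelled cells TGF-β1 raised Tgfbi, Fn1 and Col14a1 and lowered Lamc1, which makes 4 of 10 called against 33% of all genes tested (3 of 10 higher against 17%). In knockout-labelled cells it raised Tgfbi and Col14a1 and lowered Lamc1, 3 of 10 against 34.6% of all genes (2 of 10 higher against 17.6%). Both shares lie close to the background of this broad response. The libraries of 5 of the 10 genes did not overlap in floxed-labelled cells and those of 3 in knockout-labelled cells, against 43.9% and 44.9% of all genes. The median log2 change of the 10 was 0.19 in floxed-labelled and 0.11 in knockout-labelled cells, against 0.0042 and 0.00026 over all genes tested.

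Tgfbi (ENSMUSG00000035493, chromosome 13, 56609523 to 56639562, plus strand, build mm10) gave the largest change of the 10 in both labels. Its name, TGF-β induced, comes from its response to this ligand in other cells. The upstream part of RefSeq's window around its start (build GRCm38.p6) is shown because it holds the Smad-binding letters CAGAC on either strand. The 187 bases upstream of the deposited gene start, where the GENCODE annotation has no feature, contain 2 such matches, written in capitals as GTCTG on the plus strand:

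Tgfbi upstream, chr13:56609336-56609522, plus strand: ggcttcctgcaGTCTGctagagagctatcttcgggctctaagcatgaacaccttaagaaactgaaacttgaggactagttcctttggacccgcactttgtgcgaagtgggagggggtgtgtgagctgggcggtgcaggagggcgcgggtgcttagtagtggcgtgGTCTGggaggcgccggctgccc

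CAGAC on either strand occurs in 49.59% of the 32817 RefSeq promoter windows of 300 bases and at least 2 times in 16.239%, so such matches are common. The Sparc window also held 2 matches, those of Col4a2 and Col18a1 (in 1 of its windows) held 1, and those of Col4a1 and Vcan 0. Sparc, Col4a2 and Col18a1 were not called with TGF-β1 without a block. The match is a description of the letters and not a shown binding site. Windows were found for 6 of the 10 genes (7 windows, with a pair for Col18a1). The palindromic Smad element GTCTAGAC, the AP-1 element TGANTCA and the TATA box TATAAA had 0 matches in all 7 windows, against 0.213%, 7.813% and 13.621% of all windows.

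Untreated floxed-labelled libraries 1 to 3 held Tgfbi at 182, 154 and 201 CPM, and those given TGF-β1 at 1271, 1214 and 1220 CPM. In knockout-labelled cells the values were 169, 133 and 170 CPM untreated and 1132, 875 and 1145 CPM with TGF-β1. The groups lay far apart in both labels. The rise was 6.9-fold in floxed-labelled cells (log2 2.79, SE 0.13, edgeR adjusted p = 1.91e-12) and 6.68-fold in knockout-labelled cells (log2 2.74, SE 0.13, edgeR adjusted p = 2.34e-12). The difference between these rises was log2 −0.05 (95% interval −0.40 to 0.31, edgeR adjusted p = 1). With BMP4, Tgfbi lay at 151, 176 and 176 CPM in floxed-labelled and 163, 131 and 173 CPM in knockout-labelled cells, within the range of its untreated values or next to it.

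Col14a1 (ENSMUSG00000022371, chromosome 15, 55307750 to 55520803), which binds the surface of collagen fibrils, rose from a low level in both labels. Floxed-labelled libraries held 1.93, 0.802 and 1.38 CPM without ligand, and 7.41, 3.57 and 5.03 CPM after TGF-β1. Knockout-labelled libraries held 0.725, 1.28 and 0.817 CPM untreated and 5.08, 6.21 and 3.41 CPM with TGF-β1. The treated and untreated libraries did not overlap in either label. The rise was 3.82-fold (log2 1.93, SE 0.31, edgeR adjusted p = 5.8e-05) in floxed-labelled and 5.17-fold (log2 2.37, SE 0.35, edgeR adjusted p = 1.92e-05) in knockout-labelled cells. These rises differed by log2 0.44 (95% interval −0.56 to 1.43, edgeR adjusted p = 1), with an interval that covers both signs.

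Fn1 (ENSMUSG00000026193, chromosome 1, 71585520 to 71653200, minus strand), fibronectin, links cells and collagens through integrins. Untreated floxed-labelled libraries held 3.08, 3.96 and 4.52 CPM and those given TGF-β1 7.35, 11.2 and 5.28 CPM. All 3 treated libraries were above all 3 untreated ones, and library 2 was the highest of them. The rise was 2.07-fold (log2 1.05, SE 0.25, edgeR adjusted p = 0.00249), and log2 0.70 (edgeR adjusted p = 0.035) without TGF-β1 library 2. In knockout-labelled cells Fn1 lay at 2.84, 2.44 and 3.77 CPM untreated and at 4.74, 2.89 and 4.64 CPM with TGF-β1. These groups overlapped, and the difference of log2 0.43 (SE 0.28, edgeR adjusted p = 0.256) was not called. The difference between the 2 responses was not called either (log2 −0.62, SE 0.37, edgeR adjusted p = 1).

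Lamc1 (ENSMUSG00000026478, chromosome 1, 153218922 to 153332786, minus strand) encodes the γ1 chain shared by most laminins. Without ligand the floxed-labelled libraries held 69.6, 68.4 and 70.5 CPM, and after TGF-β1 53.4, 56.1 and 56.1 CPM. In knockout-labelled libraries the values were 75.9, 87.5 and 80.5 CPM untreated and 58.6, 69.3 and 56.6 CPM with TGF-β1. The fall was small but larger than the spread, since no treated library reached an untreated one of its label. It was 1.26-fold in floxed-labelled (log2 −0.33, SE 0.08, edgeR adjusted p = 0.0035) and 1.32-fold in knockout-labelled cells (log2 −0.40, SE 0.08, edgeR adjusted p = 0.000733). Lamc1 also varied least of the 10 around its group means, with a biological coefficient of variation of 7.08%.

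Versican, the large proteoglycan that binds hyaluronan and is high in monocytes, depended on how libraries were compared. Vcan (ENSMUSG00000021614, chromosome 13, 89655312 to 89742509, minus strand) lay at 12.8, 12.3 and 15.2 CPM in untreated and 6.35, 9.26 and 10.2 CPM in TGF-β1 treated floxed-labelled libraries. Knockout-labelled libraries held 11.1, 4.94 and 12.1 CPM untreated and 6.82, 3.21 and 8.8 CPM with TGF-β1. The floxed-labelled groups did not overlap and the knockout-labelled ones did, although each treated library was below the untreated library of its own number. With all groups in the fit and no block, neither difference was called (log2 −0.63 and −0.58, edgeR adjusted p = 0.189 and 0.265). The floxed-labelled fall was called when only the groups compared were fitted (edgeR adjusted p = 0.0112), and both were called without a filter on low counts (edgeR adjusted p = 5.7e-05 and 0.00201). Library numbers paired the libraries within a label, and a fit with the replicate block within genotype called Vcan lower in both (log2 −0.66, edgeR adjusted p = 0.000188, and log2 −0.59, edgeR adjusted p = 0.00332). Those blocked calls stand against 39.5% and 40.3% of all genes called in the same fits.

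Col18a1 (ENSMUSG00000001435, chromosome 10, 77052178 to 77166548, minus strand) also showed large gaps between library numbers beside a small shift with the ligand. Untreated floxed-labelled libraries held 73.3, 45.4 and 71.5 CPM and TGF-β1 treated ones 88, 61.6 and 78.4 CPM. Knockout-labelled libraries held 54.5, 72.8 and 54.3 CPM untreated and 61, 78.7 and 57.7 CPM with TGF-β1. Every treated library was above the untreated one of its number, and library 2 lay apart from the other two in each group. The unblocked differences were log2 0.26 and 0.12 (edgeR adjusted p = 0.349 and 0.691). A fit with the replicate block within genotype called the floxed-labelled rise (log2 0.27, edgeR adjusted p = 0.00015) but not the knockout-labelled one (edgeR adjusted p = 0.0949). Col18a1 shares 8825 bases with Slc19a1, a folate transporter gene on the opposite strand with a median of 119 counts, and whether counting used strand is not given in the sources used here.

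Thbs1 and the type IV collagens gave no unblocked call to TGF-β1. Thbs1 (ENSMUSG00000040152, chromosome 2, 118111876 to 118127133) lay at 54.4, 35.9 and 66 CPM untreated and 66.6, 51.7 and 50.9 CPM with TGF-β1 in floxed-labelled libraries (log2 0.11, edgeR adjusted p = 0.761). In knockout-labelled libraries it lay at 39.5, 26.1 and 51 CPM and at 31.6, 45.8 and 46.3 CPM (log2 0.09, edgeR adjusted p = 0.813). Some treated libraries were above and some below those of their number. Col4a2 was lower with TGF-β1 in knockout-labelled cells only with the replicate block within genotype (log2 −0.29, edgeR adjusted p = 0.0342, against 0.232 unblocked). Col4a1 gave log2 0.02 and −0.22 (edgeR adjusted p = 0.96 and 0.438).

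**Figure D2:**
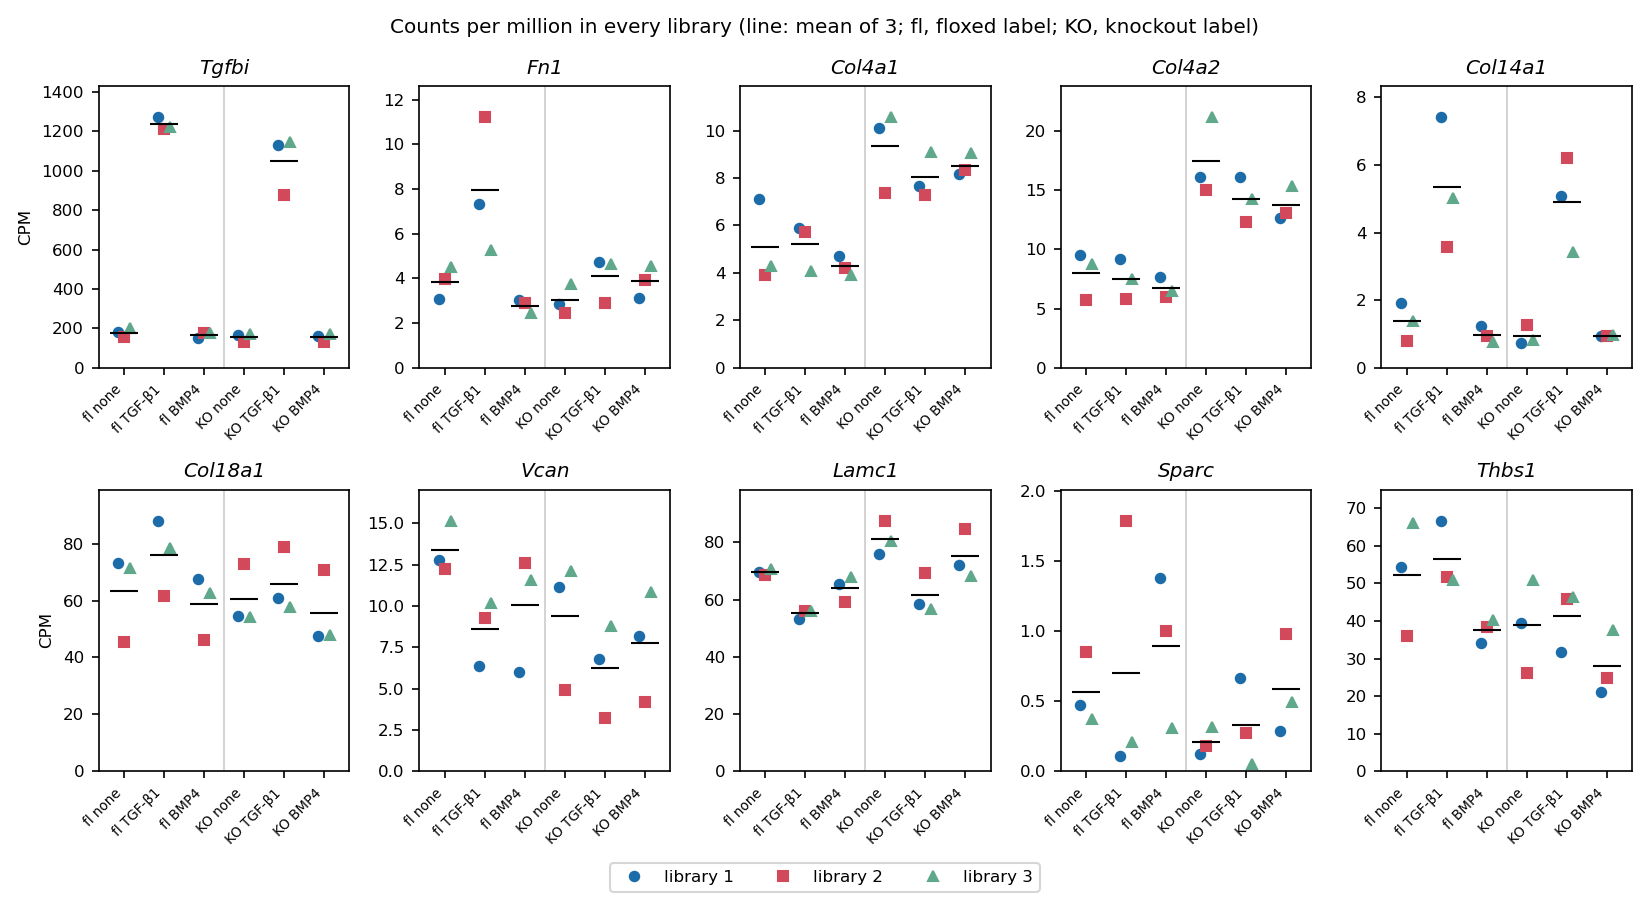
CPM of each of the 10 genes in every library, by group (fl, floxed label; KO, knockout label; none, untreated); the symbol gives the library number and the line the mean of 3. Tgfbi and Col14a1 stand clear of the other groups with TGF-β1 in both labels, Col4a1 and Col4a2 lie higher in the knockout-labelled groups, and, among knockout-labelled libraries, library 2 is the highest in Col18a1 and the lowest in Vcan in each treatment.

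Endothelial markers were higher with the same ligand. Their summed level was 26.9 to 39.6 CPM untreated and 48.7 to 70 CPM with TGF-β1 in floxed-labelled libraries. In knockout-labelled libraries it was 29.3 to 41.5 CPM untreated and 46.6 to 77.5 CPM with TGF-β1. Of 7 markers 4 were tested and 2, Vwf and Cdh5, were called higher in both labels. Vwf held most of the sum, Cldn5 was at 0 in every library and Emcn reached 1 count at most. Fewer cells of a type and less RNA per cell cannot be told apart in such bulk libraries, and the part of these markers in the results on matrix genes was not tested.

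With BMP4 none of the 10 genes was called in either label, against 0% of all genes in floxed-labelled and 0.572% in knockout-labelled cells by edgeR. Without a block 0 of the 10 had an unadjusted p under 0.05, whereas 1103 and 1798 of all genes had. With the replicate block within genotype 3 of the 10 had in floxed-labelled cells (Vcan, Thbs1 and Lamc1) and 4 in knockout-labelled cells (Col4a2, Thbs1, Col18a1 and Lamc1), against 1805 and 2540 of all genes, and none was called. DESeq2 also called 0 of the 10 in both labels. The ligand was active by Id3, a usual BMP target, which rose in knockout-labelled cells (means of 1.22 CPM untreated and 15.5 CPM with BMP4, log2 3.66, edgeR adjusted p = 0.00509). In floxed-labelled cells Id3 had means of 1.11 CPM untreated and 7.19 CPM with BMP4, where library 1 reached 1.88 CPM, and was not called (edgeR adjusted p = 0.239). Its relative Id2 was called higher in knockout-labelled cells (log2 0.60, edgeR adjusted p = 0.00122). In floxed-labelled cells Id2 was not called (log2 0.07, edgeR adjusted p = 0.853). Id1, with group means under 1 CPM, was not called in floxed-labelled or knockout-labelled cells (edgeR adjusted p = 0.831 and 0.392).

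Thbs1 had the lowest unadjusted p for BMP4 in both labels without a block. With the block Vcan (edgeR adjusted p = 0.116) came before Thbs1 (0.173) in floxed-labelled cells, and Col4a2 (0.0794) before Thbs1 (0.0951) in knockout-labelled cells. Thbs1 lay at 34, 38.3 and 40.1 CPM with BMP4 in floxed-labelled libraries and at 21.2, 24.9 and 37.6 CPM in knockout-labelled ones, against the untreated values given above. The log2 differences were −0.47 (95% interval −0.96 to 0.02, edgeR adjusted p = 0.674) and −0.48 (95% interval −0.99 to 0.03, edgeR adjusted p = 0.449), and the groups overlapped in both labels. Lamc1 and Fn1 were the 2 of 10 genes whose floxed-labelled BMP4 and untreated libraries did not overlap, against 13.2% of all genes, and knockout-labelled cells had 0 against 15.7%. Fn1 with BMP4 was 3.03, 2.88 and 2.45 CPM in floxed-labelled and 3.13, 3.92 and 4.58 CPM in knockout-labelled libraries. The floxed-labelled BMP4 libraries were all below their untreated group, while the knockout-labelled ones overlapped with theirs. The 2 Fn1 responses differed by log2 0.82 (95% interval 0.01 to 1.63, edgeR adjusted p = 0.866). For Tgfbi the intervals of the BMP4 response ran from log2 −0.35 to 0.16 and from −0.27 to 0.24.

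**Figure D3:**
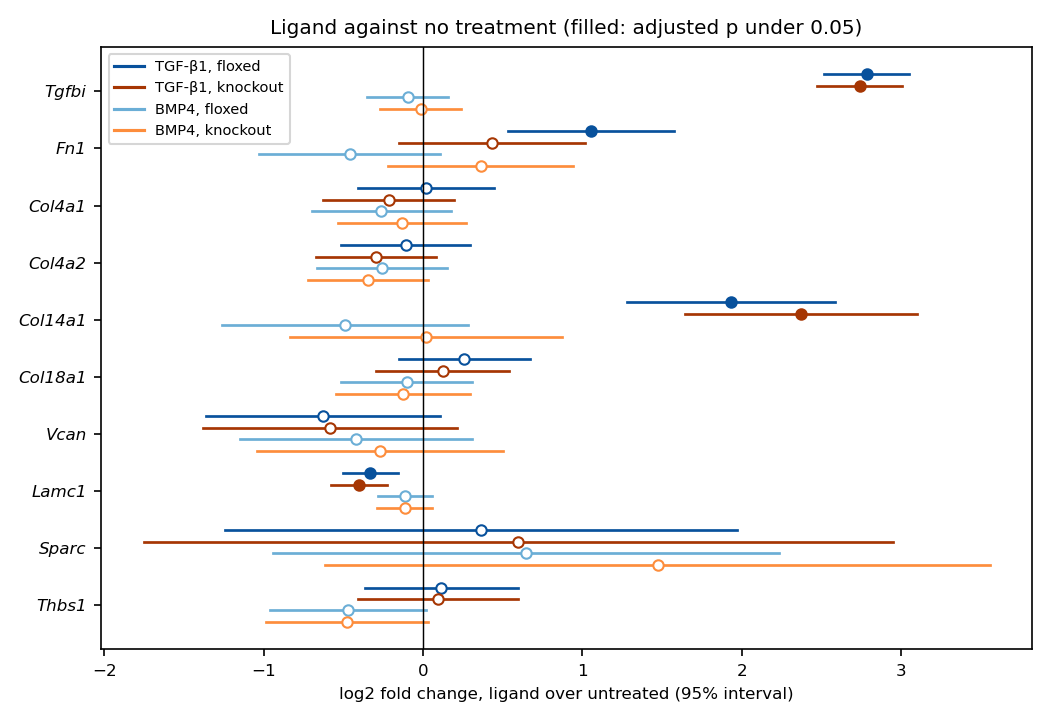
Log2 fold change of each gene with TGF-β1 (dark) or BMP4 (light) against untreated cells, in floxed-labelled (blue) and knockout-labelled (orange) libraries; bars are 95% intervals and filled points were called. Tgfbi, Col14a1 and Lamc1 are filled for TGF-β1 in both labels, Fn1 in floxed-labelled cells (log2 1.05), and no point is filled for BMP4.

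Between the genotype labels, the type IV collagen pair was called among the 10. In untreated cells Col4a1 and Col4a2 were called, both higher in knockout-labelled libraries, 2 of 10 against 2.39% of all genes tested (1.29% higher). With TGF-β1 only Col4a2 was called, higher again, 1 of 10 against 0.388% (0.136% higher). With BMP4 0 of 10 were called by edgeR, against 0.0272%. There 3 of 10 had an unadjusted edgeR p under 0.05, against 1161 of the 14684 genes tested. DESeq2 called 2, Col4a1 and Col4a2. Over the alternative settings, leaving out single libraries apart, 0 to 287 of all genes were called with BMP4. The libraries of 5, 6 and 4 of the 10 genes did not overlap between labels in the 3 treatments, against 20.5%, 19.2% and 13.2% of all genes.

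Col4a1 and Col4a2 encode the α1 and α2 chains, which assemble with each other into the main collagen of basement membranes. They lie head to head on chromosome 8, Col4a1 (ENSMUSG00000031502, 11198423 to 11312826) on the minus strand and Col4a2 (ENSMUSG00000031503, 11312805 to 11449287) on the plus strand. Their deposited coordinates overlap by 22 bases at the starts, shown because both genes begin there and reads from these bases alone could belong to either:

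Col4a1 and Col4a2 shared start, chr8:11312805-11312826, plus strand: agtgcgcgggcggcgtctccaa

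Windows of 300 bases around the 2 starts overlap each other and had a GC content of 74% for Col4a1 and 73.7% for Col4a2, against a median of 52.7% over all windows. The GC-rich Smad letters GGCGC, counted on both strands so that GGCGCC counts for each, matched 6 times for Col4a1 and 5 times for Col4a2. At least 4 matches occur in 8.953% of all windows, and the Tgfbi window also had 4. These matches in GC-rich sequence are a description and no sites.

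Untreated, Col4a1 lay at 7.11, 3.92 and 4.31 CPM under the floxed label and 10.1, 7.38 and 10.6 CPM under the knockout label. After TGF-β1 these were 5.9, 5.73 and 4.06 CPM versus 7.68, 7.3 and 9.12 CPM. After BMP4 they were 4.73, 4.21 and 3.92 CPM versus 8.15, 8.35 and 9.06 CPM. No floxed-labelled library reached a knockout-labelled one of the same treatment. The difference was 1.82-fold untreated (log2 0.86, SE 0.20, edgeR adjusted p = 0.032), 1.54-fold with TGF-β1 (log2 0.63, SE 0.20, edgeR adjusted p = 0.177) and 1.98-fold with BMP4 (log2 0.99, SE 0.20, edgeR adjusted p = 0.112).

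Col4a2 showed the same order, at 9.51, 5.76 and 8.77 CPM under the floxed label and 16.1, 15 and 21.1 CPM under the knockout label when untreated. TGF-β1 libraries held 9.19, 5.77 and 7.5 CPM versus 16.1, 12.3 and 14.2 CPM. BMP4 libraries held 7.67, 5.93 and 6.46 CPM versus 12.7, 13 and 15.4 CPM. Again no groups overlapped. The difference was 2.17-fold untreated (log2 1.12, SE 0.19, edgeR adjusted p = 0.00696), 1.91-fold with TGF-β1 (log2 0.93, SE 0.19, edgeR adjusted p = 0.0421) and 2.04-fold with BMP4 (log2 1.03, SE 0.19, edgeR adjusted p = 0.0773). Within a library the FPKM of Col4a2 was 1.14 to 2.36 times that of Col4a1 (median 1.81).

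Both differences were larger without the floxed-labelled libraries numbered 1, which held the most Col4a1 and Col4a2 of their group in all 3 treatments. In the 15 libraries Col4a1 differed by log2 1.18 (edgeR adjusted p = 0.0277) and Col4a2 by log2 1.26 (edgeR adjusted p = 0.0244) in untreated cells, where 0.259% of all genes were called. With TGF-β1 Col4a2 then gave log2 1.10 and lost its call (edgeR adjusted p = 0.06, with 0.0133% of all genes called). The Col4a1 call was also lost without knockout-labelled untreated library 1 or 3 or floxed-labelled untreated library 2 or 3 (edgeR adjusted p 0.0995 to 0.151), and the Col4a2 call without knockout-labelled untreated library 3 (0.053). The Col4a2 call with TGF-β1 was lost without any 1 of its 6 libraries (edgeR adjusted p 0.0815 to 0.193), while its log2 difference stayed at 0.78 to 1.10. Over all genes, leaving out 1 library gave 0 to 16 calls with TGF-β1, against 57 with none left out. In untreated cells it gave 27 to 613, against 351.

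The share of another class of transcripts moved with the labels in the same direction in untreated cells and with TGF-β1. Transcripts of biotype TEC, which await experimental support, took 0.116% to 0.139% of counts in untreated knockout-labelled and 0.0942% to 0.101% in untreated floxed-labelled libraries. With that share as a covariate Col4a1 and Col4a2 gave log2 0.94 and 1.20 in untreated cells, and neither was called (edgeR adjusted p = 0.999 for each). Both estimates were above the log2 0.86 and 1.12 of the reported fit. Under other settings, leaving out single libraries apart, calls over all genes in untreated cells fell to as few as 0, from 351. With TGF-β1 the shares were 0.105% to 0.118% in knockout-labelled and 0.0914% to 0.0989% in floxed-labelled libraries. Col4a2 there gave log2 0.98 with the covariate and was not called (edgeR adjusted p = 0.759). In untreated cells and with TGF-β1 the share and the label cannot be told apart, since the groups do not overlap in it. With BMP4 the shares were 0.0959% to 0.102% in knockout-labelled and 0.103% to 0.106% in floxed-labelled libraries. These groups did not overlap in the share, so within that treatment share and label cannot be told apart either. The log2 differences of the pair there were 0.99 and 1.03, and neither was called by edgeR.

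The other 8 genes were not called between the labels. Fn1 with TGF-β1 had the largest difference among them apart from Sparc, with each knockout-labelled library (4.74, 2.89 and 4.64 CPM) below each floxed-labelled one (7.35, 11.2 and 5.28 CPM). It was 1.95-fold lower (log2 −0.97, SE 0.25, edgeR adjusted p = 0.0982), and DESeq2 called it (adjusted p = 0.0254). In the 15 libraries it gave log2 −1.02 (edgeR adjusted p = 0.215). Lamc1 was higher by log2 0.23 in untreated cells (edgeR adjusted p = 0.145) and by 0.23 with BMP4 (edgeR adjusted p = 0.46), with no overlap between libraries. Thbs1 was lower by log2 −0.42, −0.44 and −0.43 in the 3 treatments (edgeR adjusted p = 0.365, 0.452 and 0.679), and Vcan by −0.51, −0.47 and −0.37.

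Markers of other blood cells also differed in sum between the labels. The 6 monocyte markers, of which Vcan is 1, summed to 760 to 993 CPM in untreated floxed-labelled and 544 to 642 CPM in untreated knockout-labelled libraries, with 0 of 6 called. The 8 platelet and megakaryocyte markers, nearly all Pf4, summed to 222 to 253 CPM and 154 to 208 CPM, with 0 of 4 tested called and Gp1bb at 0 in every library. Their part in the Vcan and Thbs1 values was not tested. No genotype dependence of a ligand response was called for any of the 10 genes, against 0.00681% of all genes for TGF-β1 and 0% for BMP4 by edgeR.

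**Figure D4:**
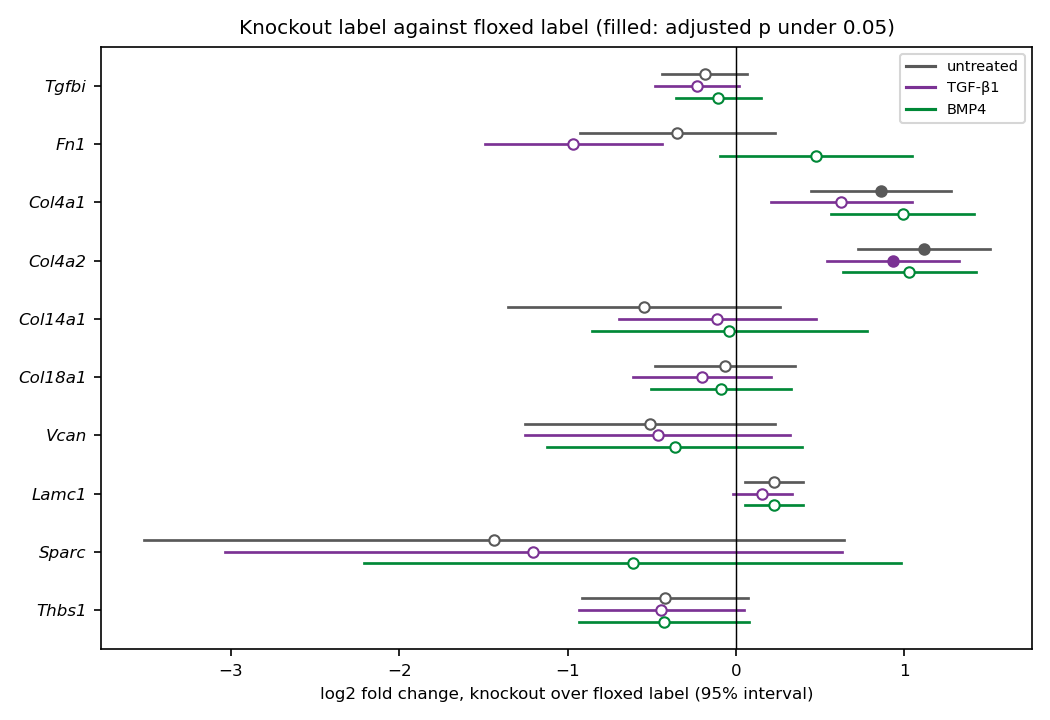
Log2 fold change of knockout-labelled over floxed-labelled libraries for each gene, untreated (grey), with TGF-β1 (purple) and with BMP4 (green); bars are 95% intervals and filled points were called. The 6 points of Col4a1 and Col4a2 lie between log2 0.63 and 1.12, with 3 of them filled, and the intervals of Sparc are the widest.

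Several of these genes had the same library number highest or lowest in all 3 treatments of a label. The share of all genes with such an order is not given here. Among knockout-labelled libraries, number 2 held the least Tgfbi and Vcan and the most Col18a1 and Lamc1 in 3 of 3 treatments. Number 3 held the most Tgfbi, Col4a1, Vcan and Thbs1 in 3 of 3. Among floxed-labelled libraries, number 1, with little Lyz2, held the most Col4a1, Col4a2, Col14a1 and Col18a1, and number 2 the least Col4a2 and Col18a1, again in 3 of 3. Vcan in knockout-labelled library 2 was 4.94, 3.21 and 4.22 CPM, below the 6.82 to 12.1 CPM of the other 6 knockout-labelled libraries.

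Sparc (ENSMUSG00000018593, chromosome 11, 55394500 to 55423183, minus strand), osteonectin, is secreted in quantity by fibroblasts and osteoblasts. It lay at 1 to 43 counts per library, near the floor. Floxed-labelled libraries held 0.471, 0.849 and 0.372 CPM untreated, 0.111, 1.79 and 0.209 CPM with TGF-β1, and 1.38, 0.998 and 0.312 CPM with BMP4. Knockout-labelled libraries held 0.121, 0.183 and 0.314 CPM, then 0.668, 0.272 and 0.0533 CPM, and 0.284, 0.979 and 0.492 CPM. The untreated groups did not overlap between labels, every other pair of groups compared did, and no comparison of Sparc was called (its SE lay between log2 0.76 and 1.12 for single contrasts).

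Stromal cell genes varied over the same libraries and between the labels. The 12 fibroblast and stromal markers summed to 8.67 to 9.64 CPM untreated, 7.57 to 17.9 CPM with TGF-β1 and 9.63 to 21.5 CPM with BMP4 in floxed-labelled libraries. In knockout-labelled libraries the sums were 5.62 to 8.48, 5.01 to 6.48 and 6.73 to 9.53 CPM, below the floxed-labelled ones without overlap in each treatment. The treatments are not independent repeats, since same-numbered libraries of a label deviated together. The gaps were narrow untreated and with BMP4, and 0 of the 6 markers tested was called between labels in any treatment. Single genes did not overlap between labels in 20.5%, 19.2% and 13.2% of all genes. Acta2 alone had a mean of 4.46 CPM. Of the 12, 10 had a mean under 1 CPM, and none was at 0 in every library. Among them Col1a1, Col1a2, Col3a1 and Dcn, chosen after their values were seen, summed to 14.8 CPM in floxed-labelled BMP4 library 1 and to 11.3 CPM in floxed-labelled TGF-β1 library 2. These 2 libraries had the highest Sparc, 1.38 and 1.79 CPM. The lowest sum, 0.0533 CPM in knockout-labelled TGF-β1 library 3, came with the lowest Sparc, at 1 count. The floxed-labelled TGF-β1 library 2 was also the highest in Fn1, at 11.2 CPM, while floxed-labelled BMP4 library 1, with the higher stromal sum, had 3.03 CPM of Fn1. Of 6 osteoblast markers Ibsp and Dmp1 were at 0 in every library and Alpl, Bglap and Sp7 reached 7, 3 and 2 counts at most, while Spp1, which macrophages also express, lay at 624 to 853 CPM. The part of stromal RNA in the Sparc and Fn1 values was not tested.

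**Figure D5:**
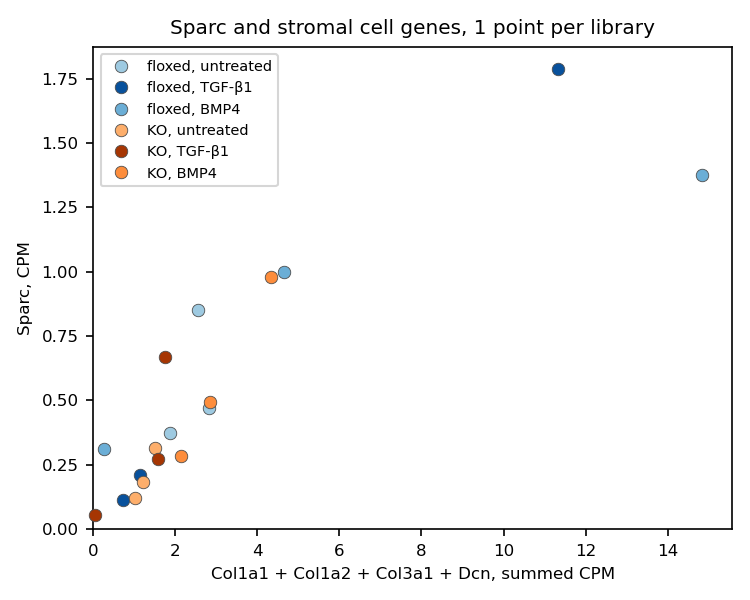
Sparc (CPM) against the summed CPM of Col1a1, Col1a2, Col3a1 and Dcn, 1 point per library, with colours for the 6 groups; the 4 genes were chosen after their values were seen. The 2 libraries with the highest sums, 11.3 and 14.8 CPM, have the highest Sparc, and the next sum is 4.66 CPM.

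Most other matrix genes did not pass the filter on low counts. Of 37 other collagens 13 were tested, of which TGF-β1 raised 2 and lowered 1 in floxed-labelled cells and raised 1 and lowered 1 in knockout-labelled cells. In the same comparisons 33% and 34.6% of all genes were called. Col15a1, a basement membrane collagen related to Col18a1, rose from 3.85 to 20 CPM (log2 2.36, edgeR adjusted p = 1.54e-09) and in knockout-labelled cells from 3.96 to 18 CPM. Col19a1 fell (log2 −1.58 and −2.23), and Col27a1 rose in floxed-labelled cells from 0.141 to 0.742 CPM. Of 64 other matrix glycoproteins and proteoglycans found, 19 were tested, with 3 higher and 1 lower in floxed-labelled and 2 higher and 1 lower in knockout-labelled cells, below the 33% and 34.6% of all genes. Emilin1, an elastic fibre glycoprotein, rose from 186 to 258 CPM and Comp, a thrombospondin relative, from 3 to 6.89 CPM, while Lama3, a laminin α chain, fell from 5.14 to 2.34 CPM.

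Of 18 tested enzymes that fold and crosslink collagen, 6 rose and 1 fell in floxed-labelled cells, and 5 rose and 3 fell in knockout-labelled cells, near the share over all genes (33% and 34.6%). Tgm2, the tissue transglutaminase that crosslinks fibronectin and other matrix proteins, rose from 29.7 to 144 CPM (log2 2.28, edgeR adjusted p = 3.27e-10). The lysyl hydroxylase Plod1 rose from 213 to 339 CPM and the prolyl hydroxylase subunit P4ha1 from 98 to 171 CPM, while the lysyl oxidase relative Loxl3 fell from 24.6 to 16.9 CPM. Ppib, a collagen prolyl isomerase, was lower in knockout-labelled cells untreated (49.5 against 59 CPM, edgeR adjusted p = 0.0287) and with TGF-β1 (48.8 against 61.6 CPM, edgeR adjusted p = 0.0186). In the 15 libraries these differences were log2 −0.24 and −0.30, and neither was called (edgeR adjusted p = 0.105 and 0.109). Ppib was the 1 of 18 tested enzymes called between labels. Of all genes, 2.39% were called between labels in untreated cells and 0.388% with TGF-β1.

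Receptors for matrix proteins moved both ways with TGF-β1. Of 23 tested, 7 rose and 9 fell in floxed-labelled cells and 6 rose and 10 fell in knockout-labelled cells, against 33% and 34.6% of all genes called. The integrin chains Itga5, the α chain of the main fibronectin receptor, and Itgav and Itgb5, which pair into a vitronectin receptor, rose from 154 to 750, 202 to 556 and 244 to 1097 CPM in floxed-labelled cells. The proteoglycan receptor Sdc1 rose from 29 to 62.8 CPM, whereas its relative Sdc4 fell from 163 to 80.9 CPM. Itga4, which also binds fibronectin, fell from 390 to 186 CPM, the thrombospondin receptor Cd47 from 324 to 220 CPM and the collagen uptake receptor Mrc1 (log2 −0.95). Of 15 TGF-β target genes, 13 rose in each label, and 1 fell in floxed-labelled cells, against 17% and 17.6% of all genes called higher. That list also holds Itgb5 and was chosen with earlier results of these data known, so its count is no independent check. BMP4 called 1 gene over all these lists, Sdc4 lower in knockout-labelled cells (170 to 136 CPM, log2 −0.32, edgeR adjusted p = 0.0121). It was 1 of 23 receptors tested, and none of the 13 collagens, 19 glycoproteins and proteoglycans, 18 enzymes and 15 target genes was called. Of all genes 0.572% were called in that comparison.

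The genes whose log2 CPM ran most like that of a called gene over the 18 libraries were found among 8363 genes of at least 10 CPM. The likeness is Pearson's r, given as a description of libraries that share their treatments. For Tgfbi they were Fkbp5, AI504432 and Cxcl16 (r 0.995, 0.995 and 0.994), and for Col14a1 Mical2, S1pr1 and Pias2 (r 0.978, 0.973 and 0.972). For Lamc1 they were Ctdsp2, Ralgapa2 and Dctn1 (r 0.936, 0.932 and 0.923), and for Fn1 Agpat1, Mbd3 and Snrpd3 (r 0.851, 0.833 and 0.824). For Col4a2 they included Acaca and Trip11 (r 0.83 and 0.83), and for Col4a1 Heatr5a, Trip11 and Nav1 (r 0.82, 0.811 and 0.796), with Trip11 near both chains.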

How the data were processed

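RNA-seq libraries (150 bp reads) of 18 macrophage samples were used. The authors counted reads per gene, and the deposited table gives raw counts and FPKM per gene and sample on mm10 coordinates; TopHat2 2.0.9, Cufflinks 2.1.1 and HTSeq 0.6.1 are named in the submitters' processing notes, and the strand setting is not given in the sources used here. The deposited FPKM values of the authors are per gene length and served for levels between genes only. A further 78 columns of per-sample values were not used. Groups came from the labels.

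From the counts, CPM and tests were computed in R 4.3.3 with edgeR 4.0.16: filterByExpr, TMM factors (0.978 to 1.02), 1 mean per group over all 18 libraries, quasi-likelihood tests (12 residual degrees of freedom) and Benjamini-Hochberg adjustment over 14684 genes, with calls at 0.05, in 9 comparisons. Total counts of 15153296 to 24639163 set the floor of 3 counts, which covers counting error only. No 2 libraries of a group were alike within counting error (chi-square over its degrees of freedom, 3.69 to 28.6). The test was tested on simulated data: for the floxed-labelled TGF-β1 comparison (14394 genes) it recovered 99% of changes of log2 1 and 93% of log2 0.585, and for the knockout-labelled one (14391 genes) 99% and 84%, with 5 false calls in each. Changes were put into 100 genes of each size, all of mean at least 5 CPM, and libraries were drawn without pairing by number. The rates therefore do not cover Fn1, Col14a1 and Sparc, with means of 4.26, 2.41 and 0.547 CPM. In the data 4841 and 5084 genes were called.

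Within a genotype label, same-numbered libraries deviated together (18 pairs, r 0.334 to 0.731; 18 of 18 libraries correlated best with their own number, over 8601 genes), so numbers were taken to pair libraries within a label, a pairing that comes from the data. Across labels they did not (27 pairs, r −0.337 to 0.234). Alternatives were DESeq2 1.42.0, limma 3.58.1 on log2(FPKM + 1) and log2(FPKM + 0.1), other filters and scalings, the replicate block, the TEC share as a covariate, 15 libraries and leaving out each library.

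The genes and lists were chosen with earlier results of these data known. Named genes are the 10, list genes past the threshold, and the 3 genes of at least 10 CPM most like each called one, of which 1 is not reported here. Promoter windows are RefSeq's (GRCm38.p6).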

Additional observations from a re-analysis of the deposited data

How the results depend on the processing

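No alternative reversed a direction that had been called. Counts of the 10 genes called moved as follows. Without a filter on low counts, edgeR called 6 with TGF-β1 in floxed-labelled cells (Col18a1 and Vcan gained) and 4 in knockout-labelled cells (Vcan gained), 1 with BMP4 in each label (Thbs1, lower), and between labels 5 untreated, 5 with TGF-β1 and 3 with BMP4. Fitting only the groups compared gave 5 with TGF-β1 in floxed-labelled cells (Vcan gained). With the replicate block within genotype TGF-β1 called 6 in floxed-labelled and 5 in knockout-labelled cells, and with the replicate block over all groups 1 (Col4a2) differed between labels with BMP4; apart from the changes given for Vcan, Col18a1 and Col4a2 the block changed no other call. Between labels, the TEC share as a covariate left 0 untreated and 0 with TGF-β1, the 15 libraries left 0 with TGF-β1, and fitting only the groups compared left 1 untreated (Col4a1 lost, edgeR adjusted p = 0.145) and 0 with TGF-β1. DESeq2 called 2 with TGF-β1 (Fn1 and Col4a2) and 2 with BMP4. On log2(FPKM + 1) and log2(FPKM + 0.1) limma called 0 with TGF-β1. Leaving out each library gave 0 to 2 between labels in untreated cells and 0 with TGF-β1. The cause of these changes was not tested. Over all genes and the other settings, calls between labels ran from 0 to 817 untreated (351 reported). They ran from 0 to 394 with TGF-β1 (57 reported) and from 0 to 287 with BMP4 (4 reported). Leaving out 1 library gave 27 to 613 untreated and 0 to 16 with TGF-β1. For the TGF-β1 response the other settings called 3922 to 5805 genes in floxed-labelled and 4001 to 5916 in knockout-labelled cells. For BMP4 they called 0 to 69 and 0 to 472. Counts over all genes for each single setting are not given here. The calls of Tgfbi, Col14a1 and Lamc1 with TGF-β1 held in both labels, and that of Fn1 in floxed-labelled cells, whichever library was left out. Sparc rests on 1 to 43 counts per library, Col14a1 on 12 to 133 and Fn1 on 40 to 270; for these genes counting error and the spread between libraries were not separated.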
